A study of Homo sapiens with 2 samples.

Results

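The metallothionein genes of chromosome 16 were examined in a map of the chromatin protein HMGB2 in senescent against growing human fibroblasts. Members were the called regions that overlapped positions 56590000 to 56725000 of chromosome 16 in the genome build hg19, a window of 135 kb that holds the genes MT3, MT2A, MT1E, MT1M, MT1A, MT1B, MT1F, MT1G, MT1H and MT1X. The window held 2 of the 3156 regions in all, 1 of 364 in a list of broad regions and 1 of 2792 in a list of narrow regions, the broad one over MT2A and the narrow one past its end. The window was chosen by the called positions of these regions, so their presence in it is a description and not a test.

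HMGB2, an abundant DNA-bending protein of the high mobility group box family, was precipitated with a rabbit antibody from RAS-infected senescent IMR90 cells and from growing IMR90 cells, and the precipitated DNA was sequenced as 1 library for each. IMR90 is a line of human lung fibroblasts. Cells of both groups were kept at 2% oxygen and taken at day 2, and each library was made from 10 ng of precipitated DNA. Senescent cells were infected with RAS, an oncogene that drives fibroblasts into a lasting arrest. The labels name neither the RAS allele nor any vector in the growing control. The deposited lists, 2 in number, compare senescent with growing cells and hold positions and no score, fold or read count. A region was taken as higher in senescent cells because the list names put that condition before growing, and no value in the lists tests this. The depth of the libraries is unknown, and with 1 library per condition the difference has no replicate check. The lists carry no measure of gene expression, so the labelled cell type could not be set against marker genes, and nothing in them tells whether a metallothionein transcript changed.

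Metallothioneins are small proteins, rich in cysteine, that bind zinc and copper and, on exposure, cadmium. Their genes are switched on by metals through the zinc-sensing transcription factor MTF1, which binds short metal response elements in their promoters, and also by glucocorticoids and oxidative stress. MT2A encodes the main isoform of many human tissues, the MT1 genes encode close relatives, and MT3 encodes a form known mostly from brain.

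The promoters of 4 members are shown first, the only members with an entry in the promoter set used. The broad region begins just before the start of MT2A and so lies over its promoter. The other 3 genes, like the 6 members without a promoter entry, had no region. The sequences were taken from RefSeq (GRCh38.p14) and run 5′ to 3′ on the plus strand over the 250 bases before the transcription start. Capitals mark matches to the core of the metal response element, TGCNCNC, on either strand. The stretch of MT2A is chr16:56608334-56608583, that of MT1B chr16:56651636-56651885, that of MT1H chr16:56669564-56669813 and that of MT1X chr16:56682220-56682469 of that build.
MT2A: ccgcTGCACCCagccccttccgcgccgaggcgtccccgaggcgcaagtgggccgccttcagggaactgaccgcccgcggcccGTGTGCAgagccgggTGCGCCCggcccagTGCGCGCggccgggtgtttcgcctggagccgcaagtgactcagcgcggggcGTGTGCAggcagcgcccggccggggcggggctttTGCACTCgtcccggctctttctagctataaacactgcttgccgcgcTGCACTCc
MT1B: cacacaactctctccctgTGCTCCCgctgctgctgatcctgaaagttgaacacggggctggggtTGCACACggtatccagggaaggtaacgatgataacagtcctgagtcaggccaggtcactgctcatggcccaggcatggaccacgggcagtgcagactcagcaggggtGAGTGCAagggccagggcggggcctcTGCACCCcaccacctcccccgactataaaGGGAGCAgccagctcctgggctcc
MT1H: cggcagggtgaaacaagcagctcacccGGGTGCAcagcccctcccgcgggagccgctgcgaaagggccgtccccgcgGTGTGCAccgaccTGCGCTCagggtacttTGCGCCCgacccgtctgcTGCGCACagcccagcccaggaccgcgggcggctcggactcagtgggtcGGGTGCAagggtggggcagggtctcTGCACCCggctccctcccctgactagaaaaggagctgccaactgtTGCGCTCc
MT1X: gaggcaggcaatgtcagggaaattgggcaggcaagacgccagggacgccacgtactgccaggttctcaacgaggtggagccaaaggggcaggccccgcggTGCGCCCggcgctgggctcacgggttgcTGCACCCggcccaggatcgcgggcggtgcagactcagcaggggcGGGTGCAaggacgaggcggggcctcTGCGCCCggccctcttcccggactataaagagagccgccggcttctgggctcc

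A single broad region covered the whole of MT2A. It ran from 56642226 to 56644850 of chromosome 16 (hg19), a width of 2624 bp, and stood at line 5 of its file, place 4 of the 364 broad regions. The bounds of MT2A used here are 56642478 to 56643409, so the region began 252 bp before the gene and ended 1441 bp past it. The model of MT2A in the RefSeq table is 18 bp shorter, so these distances, and the fit of the region to the printed promoter, may shift by that much. It was thus 2.82 times as long as the gene. Of the region, 9.6% lay before the gene, 35.5% in it and 54.9% past its end. More of the called stretch therefore lay past the 3′ end of MT2A than over its promoter and body together.

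The narrow region of the window lay wholly past the end of MT2A, inside the broad one. It ran from 56643989 to 56644253, a width of 264 bp that all narrow regions share, and stood at line 3 of its file, place 2 of 2792. Its start was 580 bp past the end of the gene and its end 844 bp past it, 597 bp before the end of the broad region. Its centre was 1643 bp after the start of MT2A. No narrow region lay over the promoter or the body of MT2A.

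**Figure D1:**
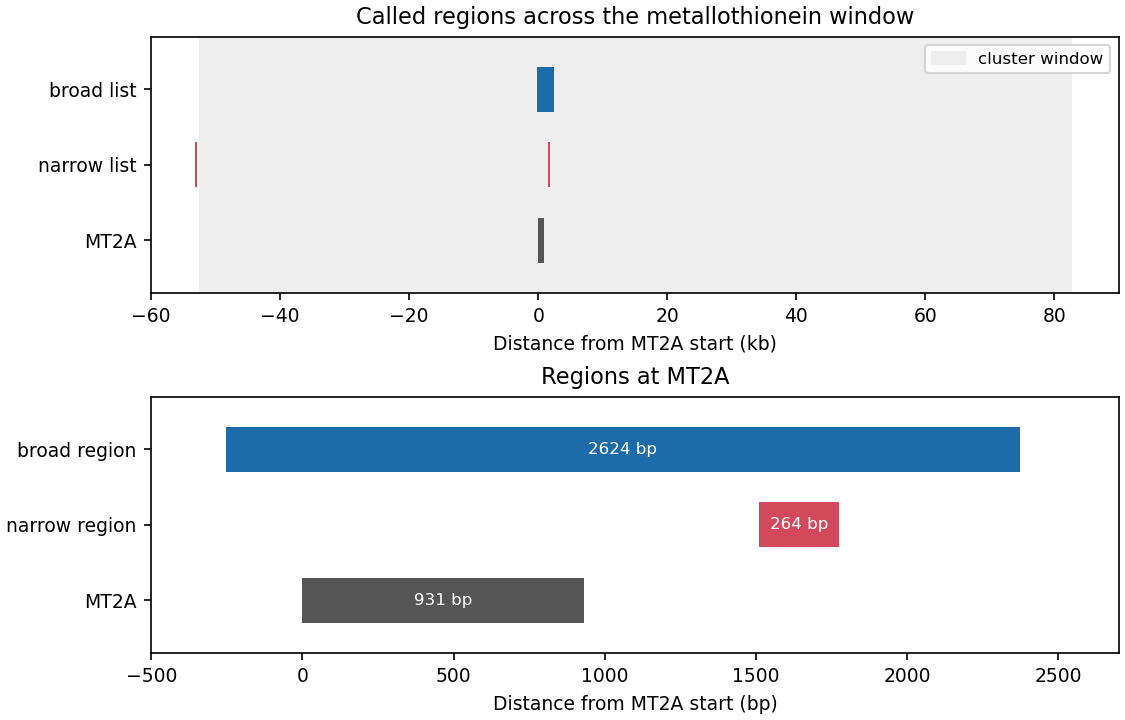
Called regions by distance from the start of MT2A. The upper panel (kb) shows the cluster window in grey with the regions of the broad and narrow lists, and the narrow region 485 bp outside the window at the left. The lower panel (bp) shows that the broad region of 2624 bp covers MT2A and that the narrow region of 264 bp lies past its end.

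The other 9 members had no region in either list. Gene order and the gaps between genes were taken from the RefSeq gene table of GRCh38, as hg19 bounds were used for MT2A only. There MT3 lies before MT2A and the 8 MT1 members after it, in the order MT1E, MT1M, MT1A, MT1B, MT1F, MT1G, MT1H and MT1X. Only entries from MT3 to MT1X were listed, and the metallothionein gene MT4, not among them, was not examined. The nearest metallothionein entries on either side of MT2A are MT3 and the pseudogene MT1L. Their gaps to MT2A in GRCh38 are wider than the reach of the broad region past the gene in hg19. The pseudogenes MT1L, MT1JP, MT1DP, MT1CP and MT1IP, which lie among the members, likewise had no region. The table also lists a long non-coding RNA, LOC124903695, just before MT2A and nearer to it than the 252 bp of the region's reach. Whether the region overlaps that entry in hg19 was not settled.

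No region lay in the 52.2 kb of the window before the broad region or in the 80.2 kb after it. These stretches contain all members other than MT2A. A missing region shows only that no region was called there. Just outside the window, a narrow region ran from 56589251 to 56589515, ending 485 bp before it, at line 1238 and place 1237 of the narrow list. The distance from this region to the narrow region past MT2A was 54.5 kb. On the other side the next narrow region was 3.2 Mb away. The nearest other broad regions, both of 500 bp, lay 3.19 Mb before and 4.98 Mb after the region of MT2A. Within 1000 kb on each side of MT2A there were 1 broad and 2 narrow regions, and within 5000 kb there were 3 and 7.

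Most windows of this length held no region. Of 22920 windows of 135 kb laid end to end over the genome, 1.44% held a broad region, 11.3% a narrow region and 0.515% both. Broad regions wider than the smallest width of 500 bp, called wide from here on, lay in 0.175% of windows (40 windows). On chromosome 16, 2.39% of 669 windows held a broad region. The metallothionein window was picked for holding both kinds, so these shares give its setting and nothing is read from the comparison.

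The region of MT2A was the seventh widest of the broad list. Its width of 2624 bp fell between those of the neighbours in that order, 2956 and 2578 bp, and the widest region of the list had 6140 bp. The smallest width, 500 bp, was that of 311 regions, and 14.6% of the list was wider, with a median of 1048 bp among those 53. The region of MT2A was 2.5 times that median. Places and widths went together at the head of the list, where the first 10 places were taken by the 10 widest regions, of 2274 bp or more.

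On chromosome 16 the region of MT2A was wider than each of the other 15. The chromosome had 16 broad regions with a summed width of 11396 bp, of which 2624 bp belonged to MT2A and 8772 bp to the other 15 together. The other 3 wide regions of the chromosome had 1086, 886 and 800 bp, and the remaining 12 had 500 bp. In the narrow list, the next region of chromosome 16 after that of MT2A stood at place 25, and in the broad list at place 23. These are values of single regions, and no error can be given for a width.

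**Figure D2:**
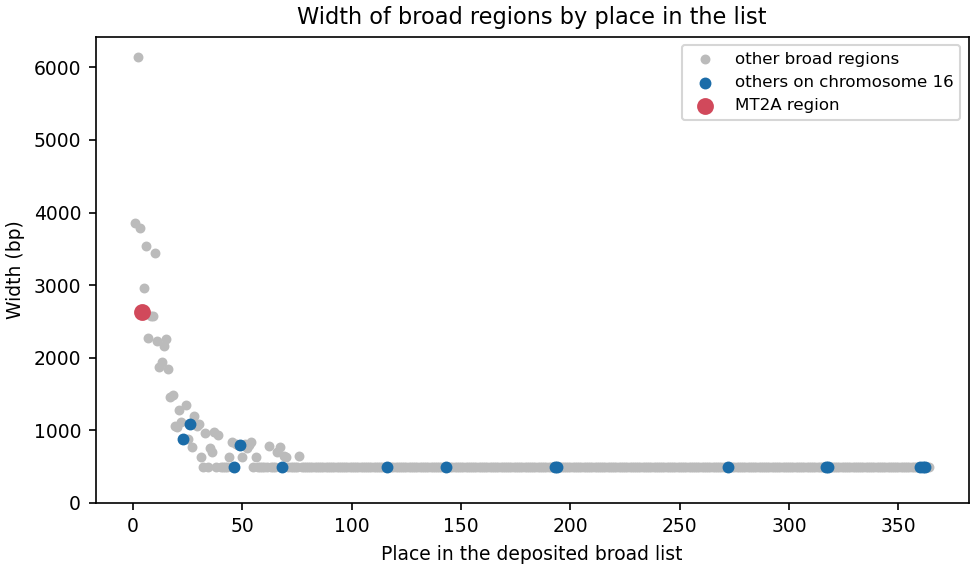
Width in bp of each of the 364 broad regions against its place in the deposited list, with the region of MT2A in red and the other regions of chromosome 16 in blue. The region of MT2A lies at place 4 with 2624 bp, above every other region of its chromosome.

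The narrow region lay inside the broad region of MT2A, and the lists share their libraries, so this is no independent agreement. Over the lists, pairs were counted by an overlap of at least 1 bp, so a narrow region may reach past the broad one. A narrow region overlapped 27.5% of all broad regions (100 of 364, exact binomial 95% interval 22.9 to 32.4, counting error only). The share was 39.6% among wide ones (21 of 53, 26.5 to 54.0), and on chromosome 16 it was 4 of the 16. Seen from the other list, 3.62% of narrow regions overlapped a broad region. All of the first 10 narrow regions did, the one past MT2A among them, and 6 of the first 10 broad regions overlapped a narrow one.

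The narrow region past MT2A was off the middle of the broad region, toward the side away from the promoter. Its centre lay 1895 bp from the start of the broad region, at 72.2% of the width. Across the 22 narrow regions that overlapped wide regions, the centre lay at a median of 50% of the width, with a lowest value of 4.81% and a highest of 82.6%. Of these, 8 lay exactly at the middle, and 7, that of MT2A included, were as far from it as at MT2A or farther. The direction of other genes was not used here, so these positions follow the chromosome and not transcription.

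**Figure D3:**
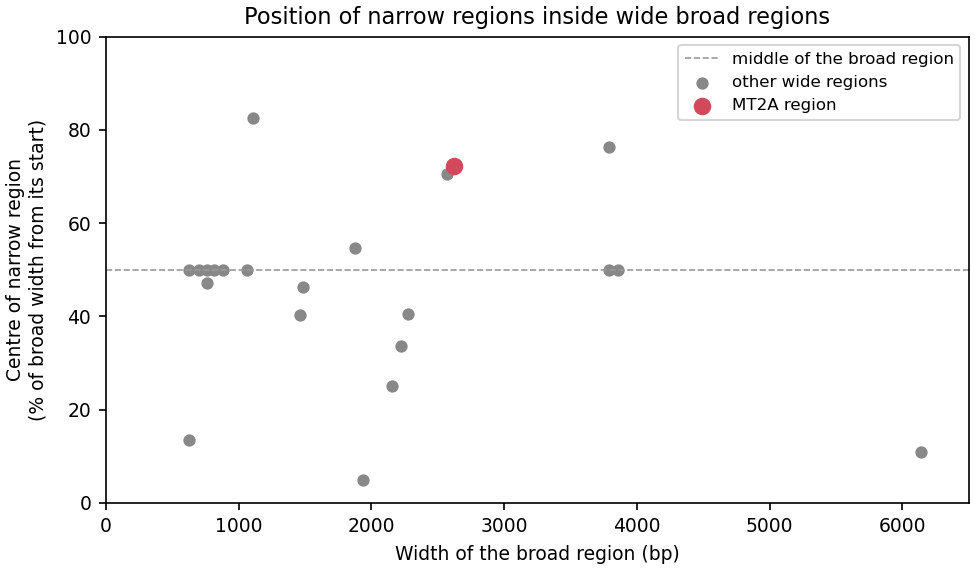
Centre of each narrow region that overlaps a wide broad region, in percent of the broad width from its start, against that width in bp. The dashed line is the middle; the region of MT2A, in red, lies at 72.2%, and the 22 points range from 4.81% to 82.6%.

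The region of MT2A was the only broad region of its cluster, and no other wide region lay near it. The nearest other wide region of the chromosome was 52.2 Mb away. Of the 53 wide regions, 28 (52.8%) had another within 135 kb. Among the 40 windows of 135 kb with a wide region, 30 held 1, 8 held 2, and the other 2 held 3 and 4. A lone wide region in a window was therefore the usual case, although about as many wide regions had a close neighbour as did not.

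The 4 promoters shown above all held matches to the metal response element core. With the 50 bases after the start included, MT2A had 8 matches, MT1H 8, MT1B 5 and MT1X 4, on both strands together, against a median of 1 over 35116 RefSeq promoters of 300 bases, of which 55.9% held at least 1. At least 8 matches were found in 0.0712% of all promoters (25, with MT2A and MT1H among them). MT1H, with no region, thus held as many matches as MT2A, and MT1B and MT1X, also with none, held fewer. With the stricter forms TGCGCNC or TGCACNC alone, present in 29.6% of all promoters, MT2A had 8 matches, MT1H 8 and MT1X 4, and MT1B had 3. MT3, MT1E, MT1M, MT1A, MT1F and MT1G had no entry in the promoter set and were not analysed for sequence here.

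The matches of MT2A began 246, 168, 153, 139, 88, 54 and 8 bases before the start, and 1 began at base 31 after it, outside the printed stretch. Positions are those of the leftmost base, counted back from the start, where the last base before it is 1. MT1B, MT1H and MT1X each had a match beginning 53 bases before the start and another, on the minus strand, 78 or 79 bases before it. The MT2A matches nearest to these began 54 and 88 bases before the start. Identity over the 300 bases was counted as a share of all alignment columns, gaps included. It was 51.3% between MT2A and MT1B, 53.5% with MT1H and 54.4% with MT1X, whereas the 3 MT1 promoters shared 59.7 to 62.8% with each other. Unrelated promoters were not aligned, so the identity they would give is not known here.

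Other promoter motifs were searched on both strands in the same way. In MT1X a GC box beginning 82 bases before the start overlapped the minus-strand match to the metal response element core at 78, and no other match overlapped that core. The AP-1 motif TGANTCA, bound by FOS and JUN proteins, began 104 bases before the start of MT2A and 146 before that of MT1B, was not found in these windows of MT1H and MT1X, and occurred in 7.71% of all promoters. The GC box GGGCGG, a motif of SP1, occurred in all 4 (45.0% of all promoters), with 2 matches in MT2A, 181 and 66 bases before the start. The TATA box letters TATAAA occurred in MT2A, MT1B and MT1X (11.5% of all), 29 bases before the start in MT2A. All 4 motifs together were found in MT2A and MT1B and in 0.0883% of all promoters. MT2A had the most CG pairs of the 4 promoters, 37, against 26 in MT1X, 25 in MT1H and 7 in MT1B and a median of 14 over all promoters, and its content of G and C was 72.0%, against a median of 58.7%. A match is a run of letters and not a bound site, and the deposited regions do not resolve single motifs.

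**Figure D4:**
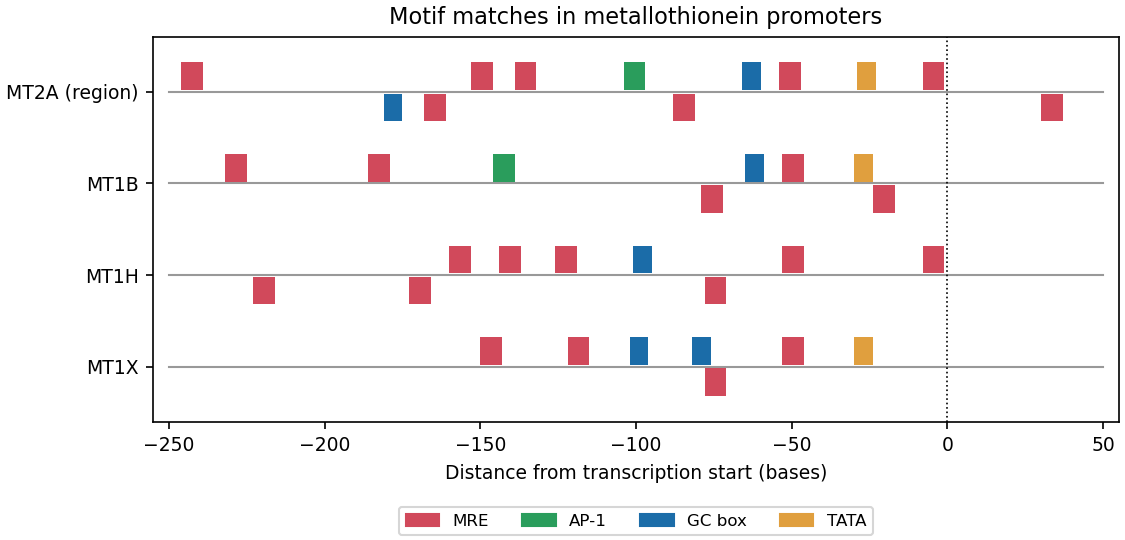
Matches to 4 motifs in the promoters of MT2A, which has a region, and of MT1B, MT1H and MT1X, which have none, by distance in bases from the transcription start. Bars above a line are on the plus strand and bars below it on the minus strand; MT2A and MT1H each have 8 matches to the metal response element core (MRE).

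Other genes of metal handling and the oxidative stress response were placed by chromosome band, since gene positions in hg19 were used for MT2A only. Of a list of 30 such genes, among them MTF1 and the zinc exporter SLC30A1, 3 shared a band with a wide region. The share over 20033 protein-coding genes was 10.3%, so 3 of 30 is near the background. With only bands that keep their length between the builds, it was 1 of 26 list genes, against 8.34% of 17125 genes. They were FTL, a ferritin subunit that stores iron, with a region of 1878 bp in 19q13.33, KEAP1, which holds back the transcription factor NRF2, with 1 of 1108 bp in 19p13.2, and the zinc importer SLC39A1, with 2 of 3436 and 1084 bp in 1q21.3. Only 19q13.33 of these bands keeps its length between hg19 and GRCh38, so KEAP1 and SLC39A1 may be paired wrongly, and a shared band does not place a region at a gene. The metallothioneins themselves show the limit of this join. In hg19 the region of MT2A lies in 16q12.2, close to the border with 16q13, whereas all 10 members fall in 16q13 of GRCh38, so the join by name would have given MT2A no wide region.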

How the data were processed

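HMGB2 chromatin immunoprecipitation with sequencing was analysed in 1 senescent and 1 growing IMR90 library, grouped by the cell condition in the labels. Per the submitters' processing notes, Bowtie 0.12.9, HOMER 1.0 and hg19 were used, with no role or order. Caller settings, filters, duplicate handling, any input control and read numbers were not given in those notes or the labels. Per the file headers, the authors' 2 lists hold a region's name with its chromosome and its bounds in bp, and no normalized value, score or read count. A region depends on the authors' threshold, and whether starts count from 0 is not stated, so a start may differ by 1 bp.

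Members overlapped the window by at least 1 bp, width was end minus start, and the place is the row in the deposited order. The window and the bounds of MT2A, 56642478 to 56643409, came with the definition of the cluster. The model of MT2A in the GRCh38.p14 gene table is 914 bp long, against 932 bp with both ends counted, so its distances may shift by 18 bp. Background windows were full windows of 135 kb over the hg19 chromosome lengths in circlize 0.4.16 (R 4.3.3), which also gave the bands. All 24 chromosomes, X and Y included, were used at full length, and stretches where no read can map were not taken out. Promoters (250 bases before to 50 after the start, 300 in all) were RefSeq's, and 4 of 10 members were matched. Identity came from global alignment in Biopython 1.88 (match 1, mismatch -1, gap opening -3, extension -1). All 10 members and all 30 metal and stress genes matched the gene table by symbol. Genes named are all members, metallothionein pseudogenes among them, and list genes in a band with a wide region. MT4, MTF1, SLC30A1 and LOC124903695 were named besides. The planned comparison of proteins was not run. Exact (Clopper-Pearson) 95% intervals were computed for the shares of broad regions that overlap a narrow one by at least 1 bp. No test between samples was possible. Counting and motif search were tested on simulated data. The members and lists were chosen with earlier results of these data known. Computation ran in Python 3.11.15 (pandas 2.3.3, numpy 2.4.6, scipy 1.17.1), and matplotlib 3.10.9 drew the figures.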

Additional observations from a re-analysis of the deposited data

How the results depend on the processing

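Of 16 alternatives, 13 left the value within 1.5 times of its count or within its counting interval. The window held 2 regions when narrowed by 10 kb on each side, with at least 50% of a region required inside, with regions within 1 kb merged and with the first 50% of each list, and had 3 with 50 kb added on each side, the third being the narrow region 485 bp outside. At MT2A the count was 1, the broad region, and became 2 within 5 kb of the gene, since the narrow region lies past the gene's end. The share of windows with a broad region was 1.44% and fell to 0.175% with wide regions only, by construction. Without X and Y, 1.46% of windows held a broad region and 11.4% a narrow one. The metal and stress genes in a band with a wide region numbered 3, and 1 with bands that keep their length between the builds, where fewer genes were counted (26). The 4 promoters kept a metal response element core under both alternatives. No paired analysis was possible because each condition has 1 library. With depth unknown, little can be said of the 9 members without a region.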

Other observations

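The deposited order was looked at after the lists were seen. Read with chromosomes in number order and X and Y last, the narrow list falls into 28 runs in which chromosome and position rise together, the longest of 544 regions. The narrow region just outside the window stands in a run of 456, at places 866 to 1321, so its place of 1237 within that run follows its position. The broad list falls into 42 such runs, the longest of 84. At the head of the lists the runs are short, with the narrow region past MT2A in a run of 2, at places 1 and 2, and the broad region of MT2A in a run of 4, at places 2 to 5. Short runs also arise where neighbours in a list happen to stand in that order, so nothing is read from these. No source used here states what sets the order of the runs.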
